A study of Drosophila melanogaster with 2 samples.

Results

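The intergenic peaks of schlank were 260 sites at which the summit lay more than 500 bp from every annotated transcription start site (TSS) and inside no annotated gene span, transposable elements left out of the annotation. They were chosen by position alone from the 2790 peaks of the thresholded set (9.32%). A further 1472 thresholded summits lay within 500 bp of a TSS and 1058 lay inside gene spans beyond that distance. The pooled candidate list, which also holds background, had 30000 entries, of which 9.3% were thresholded. It had 5562 entries of the intergenic class, of which 4.67% were thresholded. The comparison set was the 5272 intergenic candidates that overlapped no thresholded peak, and 30 others that did overlap one were left out. None of the 260 summits fell in a gene span or within 500 bp of a transcript start of the RefSeq annotation either. How far the gene models of the annotations differ was not measured, so this is no independent check of the class.

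Chromatin came from whole Drosophila melanogaster embryos, both sexes pooled, collected from 0 to 24 h of development, so the age range spans all of embryogenesis and mixes all embryonic tissues. They belonged to 1 transgenic line carrying an insertion with a C-terminal GFP fusion of schlank, and chromatin was sonicated to fragments of 200 to 800 bp. The series has 1 group with 2 biological replicates and therefore no contrast of conditions. The antibody field names schlank for both samples, whereas their free-text description calls them an input control, and they were taken as schlank ChIP from the antibody field. What separates an immunoprecipitate from an input could not be checked in lists of peaks. Each sample contributed a list of 30000 candidates, and the read depth behind them is unknown.

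Schlank is the ceramide synthase of Drosophila, an enzyme of sphingolipid synthesis in membranes of the endoplasmic reticulum, and its protein also carries a homeodomain, a fold that in other proteins contacts DNA at AT-rich sites. Sequence between genes in the compact fly genome holds enhancers, insulators, Polycomb response elements and unannotated transcripts. The nearest TSS to an intergenic site is therefore only a label of position, since an enhancer can act on a gene further away.

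The DNA at 6 of the strongest intergenic summits and at the strongest intergenic candidate outside the thresholded set is shown because these sites mark the upper end of the set and its lower limit. Each window holds 201 bp centred on the summit (RefSeq, Release 6 assembly, dm6, plus strand, 5' to 3'). Capitals mark matches to any of 16 short sequences that were searched, described with the sequence results. The jp peak lay at chr2L:9567416-9567616 (signal 1124), the CG17896 peak at chrX:493929-494129 (1100), the CR45643 peak at chr3R:16222395-16222595 (999.8) and the sp3 peak at chr3R:21520280-21520480 (842). The CR44603 peak at chr2L:1632759-1632959 (687) and the CR45695 peak at chr2L:1638718-1638918 (618) share the gap between those 2 non-coding genes. The candidate lay beside lncRNA:CR44526 at chr3L:8690922-8691122 (120.8, rank 2798). The jp window held a forkhead-type match and a run of A. The CG17896 window held a TATA-type match on both strands, and the CR45695 window held 3 kinds of match. The CR45643, sp3 and CR44603 windows held none of the 16 sequences. The candidate window held 1 homeodomain-type match.
jp peak: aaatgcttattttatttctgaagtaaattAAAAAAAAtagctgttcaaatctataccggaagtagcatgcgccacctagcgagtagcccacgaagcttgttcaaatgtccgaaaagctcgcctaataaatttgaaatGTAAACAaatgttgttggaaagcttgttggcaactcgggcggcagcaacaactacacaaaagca
CG17896 peak: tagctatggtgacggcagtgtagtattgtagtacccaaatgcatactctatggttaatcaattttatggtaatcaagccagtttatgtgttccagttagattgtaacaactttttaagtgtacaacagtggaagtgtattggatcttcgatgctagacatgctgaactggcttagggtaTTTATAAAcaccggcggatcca
CR45643 peak: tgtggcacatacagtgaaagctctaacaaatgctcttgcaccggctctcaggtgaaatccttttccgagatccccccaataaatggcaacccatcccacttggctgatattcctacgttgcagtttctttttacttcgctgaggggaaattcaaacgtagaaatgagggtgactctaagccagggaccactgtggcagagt
sp3 peak: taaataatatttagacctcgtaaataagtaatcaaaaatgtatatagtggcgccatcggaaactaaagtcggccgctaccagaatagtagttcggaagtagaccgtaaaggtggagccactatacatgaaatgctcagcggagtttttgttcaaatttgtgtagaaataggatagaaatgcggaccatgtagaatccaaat
CR44603 peak: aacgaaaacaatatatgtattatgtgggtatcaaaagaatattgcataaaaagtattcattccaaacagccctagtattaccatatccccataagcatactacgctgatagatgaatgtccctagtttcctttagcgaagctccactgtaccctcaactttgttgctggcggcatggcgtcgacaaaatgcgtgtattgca
CR45695 peak: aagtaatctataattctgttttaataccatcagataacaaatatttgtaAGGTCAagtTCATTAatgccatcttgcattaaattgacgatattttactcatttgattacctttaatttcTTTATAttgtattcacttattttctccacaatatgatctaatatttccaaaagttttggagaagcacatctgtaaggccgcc
CR44526 candidate: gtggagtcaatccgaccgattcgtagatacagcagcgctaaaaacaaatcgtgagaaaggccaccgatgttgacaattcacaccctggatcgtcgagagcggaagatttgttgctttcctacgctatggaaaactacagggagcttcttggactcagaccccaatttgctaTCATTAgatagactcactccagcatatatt

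A pair of summits 200 bp apart lay in the gap between ph-d and ph-p, tandem genes that encode Polyhomeotic proteins of the Polycomb repressive complex PRC1. Their windows are shown because they adjoin and differ in composition, and they were chosen after their values were seen. The stronger one (chrX:2123935-2124135, pooled signal 427) had a GC content of 39.8% and none of the 16 sequences. The weaker one (chrX:2124135-2124335, signal 209) had 18.9%, the lowest of all 260, and held 4 matches to TAATTA, the core sequence contacted by many homeodomains. Replicate 1 had 1 candidate within 200 bp of both summits, with a signal of 183, so its value counts for both. Replicate 2 had 260 at the stronger summit and 53.4 at the weaker.
ph-d first peak: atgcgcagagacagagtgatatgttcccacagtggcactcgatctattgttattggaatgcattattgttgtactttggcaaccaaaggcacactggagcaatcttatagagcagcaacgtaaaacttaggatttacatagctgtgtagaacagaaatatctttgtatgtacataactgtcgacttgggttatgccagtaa
ph-d second peak: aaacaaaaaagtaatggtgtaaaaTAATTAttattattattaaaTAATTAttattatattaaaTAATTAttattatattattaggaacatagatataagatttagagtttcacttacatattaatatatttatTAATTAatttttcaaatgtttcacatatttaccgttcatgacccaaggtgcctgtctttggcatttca

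Signal, the strength of each peak as the authors' caller gave it, ran from 121.15 to 1124 over the 260 peaks, a range of 9.27-fold. Its median was 173 and its quartiles were 138 and 240. The 1058 thresholded peaks inside gene spans had a median of 177. Signal decided which candidates were thresholded, so these values are a description. The best rank of an intergenic peak in the whole set was 33, and 6 ranked in the first 100. In the stronger 50% of the thresholded set by signal there were 115 (44.2%). At the limits of the rule, the weakest members had 122.03, 121.70 and 121.15, and the strongest candidates of the class that missed the threshold had 120.84, 120.66 and 120.28. The members nearest to a TSS lay 506 bp from GstD1, 513 bp from CG5973 and 516 bp from a tRNA gene. The thresholded summits outside genes that just missed the distance lay 498 bp from CG13894, 493 bp from CG3348 and 469 bp from CG32137. Most peaks had 1 fixed width, 364 bp in 187 of the 260.

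**Figure D1:**
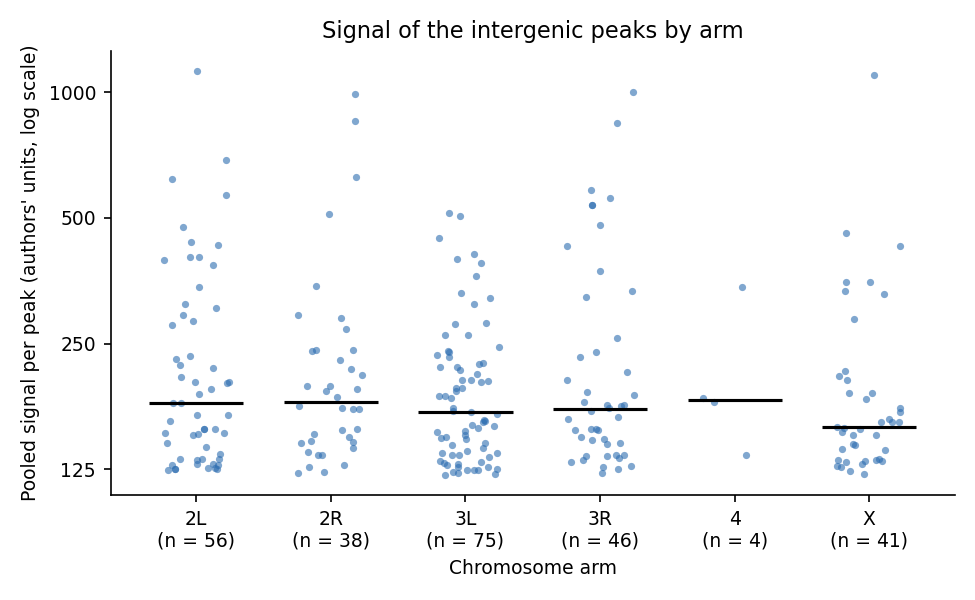
Pooled signal of each of the 260 intergenic peaks (points, authors' units, log scale) by chromosome arm, with the median of each arm as a bar. Arm medians lie between 158 on X and 183 on chromosome 4, and the strongest peaks (1124 on 2L and 1100 on X) stand far above them.

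The strongest intergenic peak lay between jp, the gene of junctophilin, and lncRNA:CR44149 (2L, summit 9567516, 766 bp upstream of the TSS of jp). Its signal was 313 in replicate 1 and 814 in replicate 2, rank 35 in both lists. The next lay 534 bp upstream of CG17896 in the divergent gap it shares with CG17778 (X, summit 494029), with 150 in replicate 1 and 931 in replicate 2. It ranked 242 and 24, so the 2 lists placed it differently. The signal scales of the lists differ, and ranks rather than sizes are set side by side.

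The third and the fourth were unlike in their surroundings. The third was near lncRNA:CR45643 on 3R (summit 16222495, ranks 100 and 38), and a further summit on the other side of that non-coding gene, in the gap before tara, had a pooled signal of 538 (summit 16224474, ranks 102 and 271). The fourth lay at 13035369 on 2R, in a convergent gap of 36783 bp between Su(z)2, a Polycomb group gene, and CG13323. It was 11887 bp from the nearest TSS and had a pooled signal of 988 with ranks 27 and 54. A weaker summit in the same gap (13015733, signal 126.6) had no candidate in replicate 1. On the same arm, in the gap between CG13321 and Psc, the Polycomb group gene paralogous to Su(z)2, another summit had a signal of 175 (12958273, ranks 666 and 3136). Psc was named after its value was seen.

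Further peaks among the 25 strongest are given with their flanking genes. The gap between blw, which encodes a subunit of ATP synthase, and CycB, the gene of the mitotic cyclin B, held a peak with a signal of 851 (2R, summit 22802958, ranks 53 and 75). Those between CG14762 and mir-4981 (2R, 8014404) and between Aldh-III, an aldehyde dehydrogenase gene, and wech (2R, 7478747) had 627 and 510. DNAlig3, a DNA ligase gene, was the nearest by TSS to a peak with 559 (3R, 12403137), which lay in a convergent gap of 437 bp between Sol1 and Cyp9f2.

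A pair of peaks lay in the gap between tRNA:Ser-GCT-2-2 and foxo, the forkhead factor of insulin signalling, at 3351 and 4592 bp upstream of its TSS (3R, 14053594 and 14052353, signals 536 and 373). Ranks at the stronger one were 191 and 220, close in both replicates. The peak between the homeobox gene C15 and sp3 (3R, 21520380, 842) ranked 56 and 70, which are close as well. The peak between Atg13 and stck, an adaptor gene of integrin adhesion (3R, 8355732, 584), ranked 441 and 117, and that between Atf3, a bZIP factor gene, and CG32812 (X, 1277157, 459) ranked 1154 and 187. Both stood higher in replicate 2. The gap between CG8519 and ple, the gene of tyrosine hydroxylase, had 513 (3L, 6709192). Those between Rim, an active zone gene, and cpo (3R, 17919239) and between CG7484 and Crtc, a coactivator of CREB (3L, 17658581), had 480 and 505. The gap between corto and CG43131 had 427 (3R, 5108198).

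Of the 25 strongest, 8 had a non-coding RNA gene as the nearest by TSS, among them 3 in the gap between lncRNA:CR44603 and lncRNA:CR45695 and one each in the gap of lncRNA:CR45303 and lncRNA:CR45693 (2L, 14505214, signal 476), beside lncRNA:CR44197 (2L, 13083823, 438) and beside lncRNA:CR44588 (2L, 12011295, 429). The peak beside lncRNA:CR44197, in the divergent gap with CG9932, ranked 2528 in replicate 1 and 185 in replicate 2. That beside lncRNA:CR44588 lay in the gap with Rh5, a rhodopsin gene of the eye.

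Nearly all intergenic peaks had a counterpart in each replicate, but fewer were among the strongest of both. A candidate summit within 200 bp was present for 249 in replicate 1 (95.8%), for 259 in replicate 2 (99.6%) and for 248 in both (95.4%, exact Clopper-Pearson 95% interval 92.1 to 97.6). Intervals of shares cover the sampling of sites and not variation between embryos. Since the thresholded set was made from these lists, the shares are no independent check. Of the 1058 thresholded peaks inside genes, 1006 had a candidate in both, and no share is given here for the candidates of the class. A counterpart could be weak, since each list of 30000 also holds background. The replicate 1 match of the peak upstream of Tina-1 (2R, 24943262) ranked 28380. Of the 2790 strongest candidates of a replicate, 175 intergenic peaks matched one in replicate 1 (67.3%) and 218 in replicate 2 (83.8%). The match was in both for 136 (52.3%, interval 46.0 to 58.5) and in neither for 3. For thresholded peaks inside genes the shares were 68.8%, 87.5% and 58.0% (interval 55.0 to 61.0).

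Signals of the replicates were weakly related across the 248 intergenic peaks with both values, with Spearman's rho 0.29 and Pearson's r of log2 signal 0.38. Across 1006 peaks inside genes they were 0.36 and 0.50. These coefficients are across sites that share both libraries, and sites weak in both replicates are absent from the set by its making. In replicate 1 the median signal of the matched candidates was 54.5 (12.9 to 361), and in replicate 2 it was 126 (24.5 to 931).

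**Figure D2:**
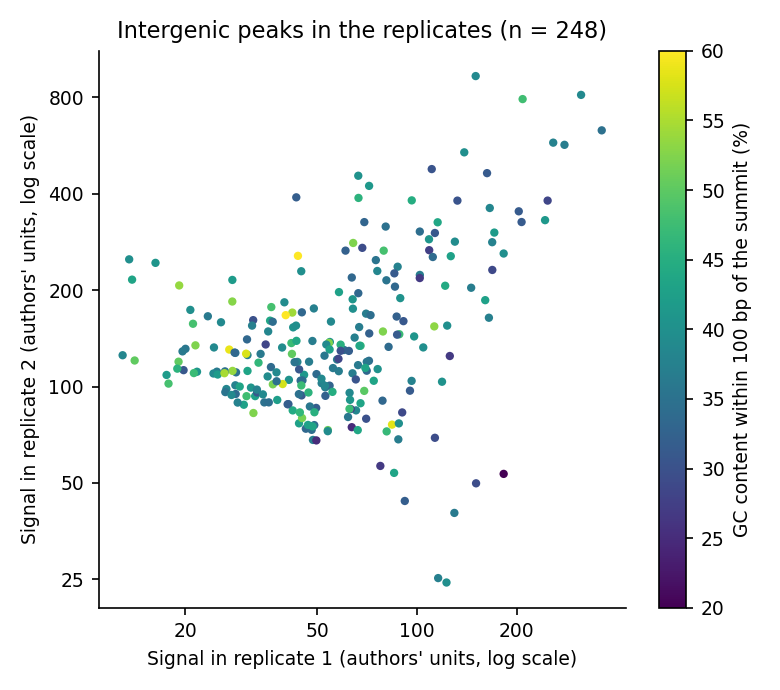
Signal of the 248 intergenic peaks matched in both replicates, replicate 1 against replicate 2 (authors' units, both axes log scale), coloured by GC content within 100 bp of the summit. The cloud is broad, with rho 0.29, and the darkest point, at 183 and 53.4, is the AT-rich second summit at ph-d. Its replicate 1 value is that of a candidate matched to both ph-d summits.

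Base composition differed between peaks that ranked higher in one replicate or in the other, in the same direction as between the replicate lists. Both the strongest and the other intergenic candidates were poorer in GC in replicate 1 than in replicate 2, with values given below. The 107 peaks ranked higher in replicate 1 had a mean GC content of 37.5% ± 6.79 (SD), and the 140 ranked higher in replicate 2 had 40.2% ± 7.19. The log2 ratio of rank in replicate 2 to rank in replicate 1 correlated with GC content with a rho of -0.22 (n = 248). For the AT-rich second summit at ph-d, the replicate 1 rank used (152) was that of the candidate shared with the first. The 11 peaks with no replicate 1 candidate had 42.9% on average and signals from 123 to 157.5. They included sites upstream of Treh, the trehalase gene (2R, 21073455, signal 146), and of Hr38, a nuclear receptor gene (2L, 20715215, 136), both named once their values were known. The 1 peak with no replicate 2 candidate, upstream of chinmo (2L, 1649425, 132), had 22.9%.

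Intergenic peaks lay closer to a TSS than other intergenic candidates. The median distance was 2026.5 bp (quartiles 948 and 4297, maximum 37236), against 3225.5 bp for the 5272 candidates of the class. Taken from the strongest candidates of each replicate alone, the medians were 2056 bp against 3461 bp in replicate 1 and 2052 bp against 3191.5 bp in replicate 2. Thresholded peaks inside genes had 1993 bp. For the 334 intergenic candidates ranked 2791 to 5580, just below the thresholded set, it was 2428.5 bp. Between 500 and 1000 bp from a TSS lay 68 peaks (26.2%, interval 20.9 to 31.9) and 13.8% of the candidates (12.8 to 14.7). Between 5000 and 10000 bp lay 28 of the 260 peaks (10.8%) and 1107 of the 5272 candidates, and beyond 20000 bp lay 3 peaks, all in the gap between NijA and CG43245.

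**Figure D3:**
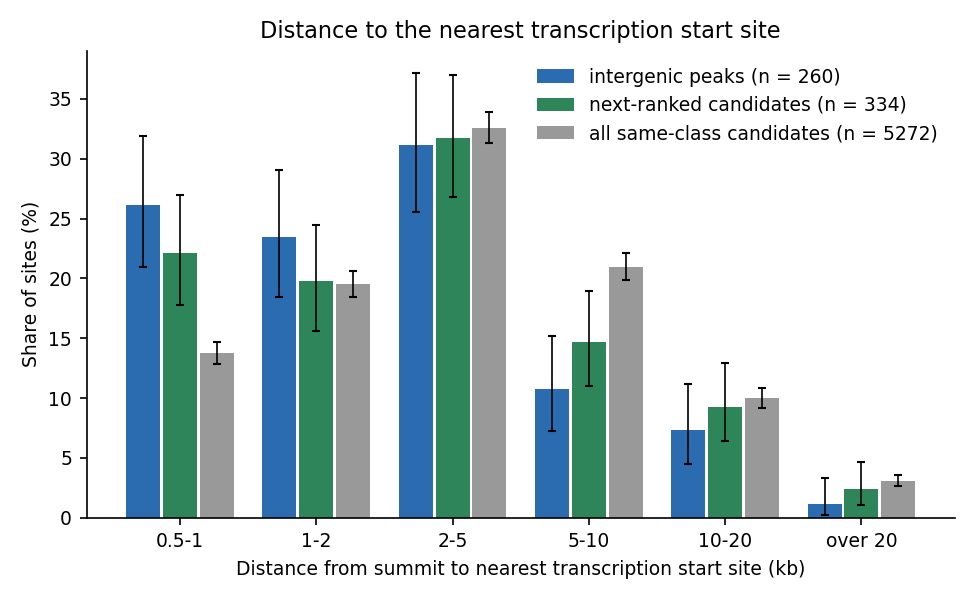
Share of sites (%, bars, with exact 95% intervals) by distance from the summit to the nearest TSS, for the 260 intergenic peaks, the 334 next-ranked candidates and all 5272 candidates of the class. From 500 to 1000 bp the peaks have 26.2%, the next-ranked candidates 22.2% and all candidates 13.8%, and from 5000 to 10000 bp the order is the reverse.

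The gaps that held the peaks were shorter, with a median of 7321 bp against 11796 bp for the candidates, and 8265 and 7633 bp for the strongest of replicates 1 and 2. Orientation of the flanking genes differed little, with 28.5% divergent gaps against 25.8%, 51.5% tandem in both sets and 52 peaks in convergent gaps against 22.7% of candidates. Upstream of the nearest TSS lay 66.9% of peaks (interval 60.8 to 72.6) and 60.9% of candidates (59.6 to 62.3). Of the next-ranked candidates 67.7% lay upstream, so the share changed little across the threshold. The nearest TSS belonged to a protein-coding gene for 182 of the 260 peaks and 66.9% of candidates, and to a long non-coding or antisense RNA gene for 26.9% and 29.7%. Across the 260 peaks, the rho of signal with distance was -0.033 and with gap length -0.063.

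Other thresholded peaks were often near. Another thresholded summit lay within 5000 bp of 114 intergenic peaks (43.8%, interval 37.7 to 50.1), of 34.1% of the next-ranked candidates (29.1 to 39.5) and of 17.7% of all candidates of the class (16.7 to 18.8). The nearest TSS itself had a thresholded summit within 500 bp for 42 peaks (16.2%), 12.3% of the next-ranked candidates and 6.03% of all candidates. No test was made between these sets, which differ in signal by construction.

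The peaks were spread over 214 gaps, and 78 of them shared a gap with another. No such share is given for the candidates, so the count is a description and not a trait particular to the peaks. Gaps with at least 3 peaks held from 4 pooled candidates (CG7484 to Crtc) to 48 (NijA to CG43245). The gap of 20910 bp between lncRNA:CR44603 and lncRNA:CR45695 on 2L held the most, with 5 summits at 1632859, 1634316, 1638042, 1638818 and 1643515. Their signals were 687, 403, 163, 618 and 566 in that order, so 4 of them stood above the upper quartile of 240. In the next gap, before chinmo, the gene of a BTB zinc finger factor that sets temporal identity of neurons, followed summits at 1648825 (233) and 1649425 (132). All 7 matched one of the 2790 strongest candidates of replicate 1, and 6 matched one of replicate 2.

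Each of the other gaps with at least 3 peaks was on 3L, apart from that between Hacd1, a gene of very long chain fatty acid synthesis, and Rh5 on 2L (3 peaks, signals 126 to 229). The gap between tRNA:Ile-TAT-1-2 and CG13898 held 4, with 447 at 802884 as the strongest, and that between lncRNA:CR45251 and CG6163 held 4, with 399 at 11353235. The gap of 75047 bp between NijA and CG43245 held 4, with 390 at 10752828. The gap between lncRNA:CR44526 and SrpRbeta held 4 of moderate signal, from 130 to 163. The gap between scyl, which encodes an inhibitor of TOR signalling, and lncRNA:CR44720 held 3, with 239 at 11258553. The gap between CG7484 and Crtc held 3, with 505 as the strongest and 143 as the weakest.

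With under 20 kb allowed between neighbours, 54 peaks (20.8%) fell into 10 runs of at least 4. The longest in number were that at chinmo (16566 bp from first to last summit), one from Pex7 to SrpRbeta around hry, the symbol of the pair-rule gene hairy in this annotation (32372 bp), and one from scyl to Dyro (30331 bp), with 7 peaks each. At hry 2 of the 7 matched the strongest candidates of replicate 1 and 6 those of replicate 2. From scyl to Dyro the numbers were 4 and 6, and at chinmo they were 7 and 6. Over the whole intergenic set, too, more peaks matched the strongest of replicate 2 than of replicate 1, as given above. Candidates were dense in these runs as well, with 38 pooled candidates in the hry run, 31 in the scyl run and 18 in the chinmo run. The share of candidates that fall into runs is not given, so the runs are a description.

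**Figure D4:**
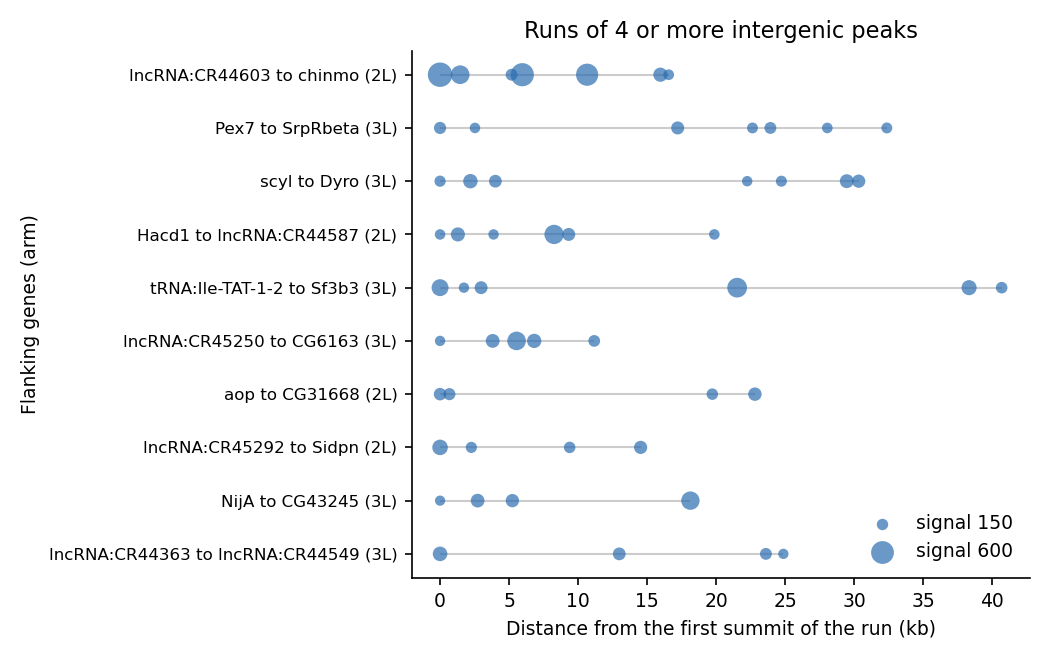
The 10 runs of at least 4 intergenic peaks with under 20 kb between neighbours, each peak placed by its distance from the first summit (kb) with an area proportional to its pooled signal. Peaks of high signal crowd in the run beside chinmo (132 to 687), while those of the run around hry lie between 127 and 196.

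By chromosome arm, the peaks were unevenly spread over the sequence of the class. There were 7.13 per Mb over all arms, with 8.34 on 2L, 5.10 on 2R, 8.26 on 3L, 6.00 on 3R, 7.72 on X and 16.3 on chromosome 4, where they numbered 4. Candidates of the class were sparsest on X (90.6 per Mb against 145 over all arms). X held 41 peaks (15.8%, interval 11.6 to 20.8) and 9.12% of candidates, and 14.6% of the sequence of the class. It held 9.28% of the next-ranked candidates and 22.1% of the thresholded peaks inside genes. In the strongest sets of replicates 1 and 2 alone the X share was 12.1% and 14.0%, against 9.52% and 9.11% of their other candidates. In the stronger 50% of the thresholded set it was 12.2%. The peaks on chromosome 4 included a pair between Asator and zfh2, a homeodomain and zinc finger gene, at 497902 (signal 342, ranks 193 and 968) and 489529 (182), and one between fuss and toy, a Pax6 gene (982960, 136).

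Lists of developmental genes were set against the nearest TSS of each peak. Genes of the Hox complexes were nearest to 0 peaks and to 0.171% of candidates. The Antennapedia complex, from lab to Antp, held none of the 260 peaks, 1 thresholded summit and 16 intergenic candidates. The Bithorax complex, from Ubx to Abd-B, held 1 intergenic peak, between Glut3 and lncRNA:CR45750 (3R, 16798859, signal 239, ranks 683 and 1168), and 7 candidates. Of 65 other homeobox genes, 2 were nearest to a peak, zfh2 and ems (3R, 13914951, signal 131). That was 0.769% of peaks (interval 0.0933 to 2.75) against 1.95% of candidates. Of 37 other patterning factors in the annotation, 4 were nearest. They were slp2 (2L, 3832528, signal 283), in the gap it shares with the pair-rule paralog slp1, fkh (3R, 28571022, 177), the Sox gene D (3L, 14174418, 169) and the visceral mesoderm gene bin (3L, 6989152, 127). Their share was 1.54% of peaks (0.421 to 3.89) and 1.12% of candidates. The list missed hairy, which under its newer symbol hry was nearest to 2 further peaks (3L, 8672668, signal 172, and 8675198, 127), and it is not a full list of such factors. Candidates nearest to hry are missing from the 1.12% in the same way, so the 2 shares exclude hry alike.

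Signalling ligand genes were nearest to 0 peaks and 0.740% of candidates. By flanking gene, 4 peaks lay in gaps of upd1, a ligand of JAK/STAT signalling, the Notch ligand gene Ser or the BMP antagonist gene sog. No share of candidates by flanking gene is set beside this count, so it only names the sites. The upd1 gap had 175 (X, 18294239), the Ser gap 155 (3R, 27209201), and the sog gap 151 and 131 (X, 15599864 and 15602610). Of the lists of neuronal, muscle, cuticle protein and chemoreceptor genes, each was nearest to 1 peak (0.385%, interval 0.00974 to 2.12), against 0.266%, 0.266%, 0.664% and 1.21% of candidates in that order, all inside that interval. The genes were the axon guidance receptor gene robo2 (2L, 1422939, signal 189), the muscle actin gene Act57B (2R, 20939935, 155), the cuticle gene Cpr76Ba (3L, 19516720, 322) and the gustatory receptor gene Gr89a (3R, 16497528, 150). Ribosomal protein, histone, microRNA and small nuclear or nucleolar RNA genes were nearest to 0 peaks, for which the exact upper limit of the share is 1.41%. Their shares of candidates were as low, with 0.209%, 0.0759%, 0.285% and 0.285% in that order. Transfer RNA genes were nearest to 7 peaks (2.69%, interval 1.09 to 5.47) and 1.56% of candidates. The strongest of these lay near tRNA:Ile-TAT-1-2 (3L, 781358, 330, and 784332, 193), tRNA:Phe-GAA-1-7 (3R, 13800617, 258) and tRNA:Ile-AAT-1-9 (2R, 19715049, 174). Those at tRNA:Ile-TAT-1-2 lay 10995 and 13969 bp from that gene and a weaker peak (783088, signal 124.6) lay 12725 bp from it.

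Intergenic peaks were poorer in GC than the candidates of the class. Within 100 bp of the summit, mean GC content was 39.1% ± 7.31 (SD, n = 260) against 43.4% ± 7.22 (SD, n = 5272), a difference of -4.34 percentage points. It was -4.27 for the strongest of replicate 1 (36.2% against 40.5%) and -4.02 for replicate 2 (40.6% against 44.7%). Against the 334 next-ranked candidates, whose mean was 41.2%, the difference was -2.07. Thresholded peaks inside genes had 38.4%. By band of GC content, 9.91% of sites under 30% GC, 9.72% from 30 to 35% and 8.32% from 35 to 40% were thresholded. The share was 3.57% from 40 to 45% GC, 1.73% from 45 to 50% and 2.54% above. Among the peaks themselves, signal and GC content were weakly related (rho -0.16). Whether amplification or sequencing of AT-rich fragments moved the peak lists was not tested.

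**Figure D5:**
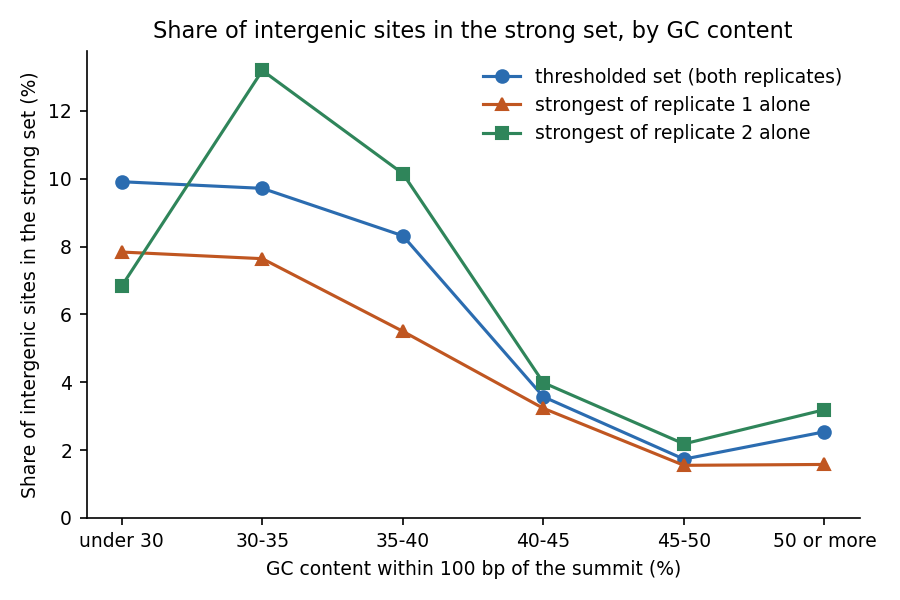
Share (%) of intergenic sites that were in the strong set, by GC content within 100 bp of the summit, for the thresholded set and for the strongest candidates of each replicate alone. In all 3 sets the share is higher below 40% GC than above it, and in replicate 2 it peaks at 13.2% from 30 to 35% GC.

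Long sequence found elsewhere in the genome was nearly absent from the peaks. In none of the 260 windows were more than 50% of 31-base words found elsewhere in the genome (2 of the 5272 candidate windows), and 3 windows held any such word. A single peak lay inside an annotated transposable element (2L, 4030646, signal 151), 0.385% against 0.721% of candidates. Soft-masked bases, which the reference sequence writes in lower case as repetitive, were present in both sets. They made up 17.0% ± 14.0 (SD) of the peak windows, with a median of 13.9% and a maximum of 75.6%, against 15.2% ± 13.3 of the candidate windows. The AT-rich second window at ph-d was 68.7% masked.

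The 16 short sequences were searched on both strands of the 201 bp windows. They were the homeodomain core TAATTA with its variant TAATGA, the repeat GAGAGAG of the Trithorax-like protein, the site TATCGATA of Dref, the site CAGGTAG of the pioneer factor Zelda and the site GATAAG of zinc finger factors such as Serpent. Also searched were the forkhead site TGTTTAC, the bZIP site TGAGTCA of Jun and Fos, the E-box CACGTG, the different E-box CAGCTG, the core promoter sequence TATAAA, the dinucleotide repeat CACACACA and the homopolymer AAAAAAAA. The remaining sequences were the Stat92E site TTCNNNGAA, in which N is any base, the Runt domain site AACCACA and the nuclear receptor hexamer AGGTCA. Matches of different sequences may overlap. At least 1 was held by 179 peaks (68.8%) and 66.7% of candidates, so their presence as such did not set the peaks apart. A match is a run of letters and not a binding site.

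The homeodomain-type sequences were no more frequent in the peaks than in the candidates. TAATTA was in 32 peaks (12.3%, interval 8.57 to 16.9) and 12.1% of candidates, a ratio of 1.01. Once the GC content of the windows was taken into account, in bins of 5 percentage points, the ratio was 0.832. In the strongest sets of replicates 1 and 2 it was 1.14 and 1.09 before and 0.926 and 0.918 after that step. TAATGA was in 25 peaks (9.62%) and 12.7% of candidates.

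GATAAG was in 37 peaks (14.2%, interval 10.2 to 19.1) and 9.14% of candidates. The ratio was 1.56, 1.59 within GC bins, and 1.79 and 1.55 in replicates 1 and 2. The next-ranked candidates had 13.8%, so the share changed little across the threshold. The Zelda-type sequence was in 5 peaks (1.92%, interval 0.627 to 4.43) and 0.778% of candidates, among them those at tara, in the Bithorax complex and beside upd1. The forkhead-type sequence was in 18 peaks (6.92%) and 4.86% of candidates, and in 13.5% of peaks inside genes. The next-ranked candidates had 7.19%, so this share did not rise across the threshold. TATAAA was in 71 peaks (27.3%) and 18.7% of candidates, a ratio of 1.46 that was 1.03 within GC bins.

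The E-boxes were less frequent in the peaks. CAGCTG was in 10 (3.85%, interval 1.86 to 6.96) and in 8.10% of candidates, and CACGTG in 2 (0.769%, 0.0933 to 2.75) and in 3.03%. For CAGCTG the ratio was 0.475, 0.570 within GC bins, and 0.572 and 0.559 in the replicates. Thresholded peaks inside genes had 7.56% and 2.36%.

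Words of 6 letters were ranked by the ratio of their share in peaks to that in candidates, which picks the extremes, so their ratios are a description. Among 605 words in at least 10% of peaks, the highest was CCATAG, in 27 peaks (10.4%) and 4.08% of candidates. Its ratio was 2.55, 2.47 within GC bins and 2.30 and 2.47 in the replicates, and its share was 4.49% in the next-ranked candidates and 3.78% in peaks inside genes. GTTATA (2.48), ACCATA (2.31), AGTATG (2.24), GTACAC (2.07) and CTATAA (2.02) followed. Within GC bins their ratios were 1.72, 1.96, 1.87, 1.915 and 1.45 in that order. Their shares in peaks inside genes were 8.70%, 7.47%, 7.47%, 12.6% and 11.7%. GTACAC, in 13.1% of the intergenic peaks, was thus nearly as frequent in peaks inside genes. The 6 words share letters and can overlap. CCATAG and ACCATA were both in 9 peaks (3.46%) and 0.873% of candidates, and GTTATA and CTATAA were both in 11 peaks (4.23%) and 1.78% of candidates. Of the exact contexts of 10 letters around the words, none was in more than 4 peaks, and shared words of 7 or 8 letters were not counted. At least 2 of the 6 were in 55 peaks (21.2%) and 6.58% of candidates. Since the 6 were picked for high shares in these same peaks, higher joint shares than in candidates follow from the choice. Whether the words occur together more often than their single shares give was not tested. The lowest of 566 words were CCATCC (0.403), GCCCCA (0.423), CCCAAC (0.451), CGCCCA (0.458), GGCGAA (0.488) and GGAGCA (0.493), each richer in G and C than in A and T. Within GC bins their ratios were nearer to 1 but still below it, at 0.5835, 0.5646, 0.6001, 0.6316, 0.6024 and 0.6116 in that order.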

How the data were processed

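Peak lists were used as the authors deposited them: 1 candidate list of peaks and background per replicate, 1 of both replicates pooled, and the optimal IDR thresholded set (IDR ranks peaks by reproducibility between replicates), all on assembly dm6, per the labels. The signal column is peak strength in the authors' deposited lists, on an unstated scale, and was used to rank and describe peaks within a list. The 2790 thresholded peaks were the 2790 strongest pooled candidates. Not given in the sources used here are the aligner, the peak caller, their settings and the cut-off applied by IDR. Neither read counts nor control data were used here.

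Summits (peak start plus deposited offset) were placed against Ensembl release 115 (BDGP6), and sequence was read from the RefSeq Release 6 assembly. No member's summit lay beyond its arm's end. Sites matched a replicate where a candidate summit lay within 200 bp. A replicate alone was represented by its 2790 strongest candidates, with its others as background. A share of GC or sequence words refers to 201 bp around the summit. Members, gene lists and sequences were chosen with earlier results of these data known, so no test was made; shares carry exact Clopper-Pearson 95% intervals, which cover sampling of sites only, and the replicates' own lists show the spread.

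Named were the 25 strongest members with nearest and flanking genes, members in the homeotic complexes, up to 4 members for each of 14 lists of neighbouring genes, gaps with at least 3 members, and the 6 highest and 6 lowest words. The alternatives were promoter windows of 250 and 1000 bp, protein-coding genes only, the stronger 50% of peaks, each replicate alone, other match distances (100 and 500 bp), windows of 50 bp, next-ranked candidates as background, 1 member per 1 kb, GC bins and 21-base words. Functions were checked on planted data. Computation was in Python 3.11.15 with scipy 1.17.1, pandas 2.3.3 and numpy 2.4.6, and plots were drawn with matplotlib 3.10.9.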

Additional observations from a re-analysis of the deposited data

How the results depend on the processing

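GC content was lower in the peaks than in same-class candidates under each of the 9 alternatives run for it, while its size and the other values moved. With a promoter window of 250 bp, 21.98% of thresholded summits outside promoters were intergenic, the GC difference was -4.66 percentage points, 27.7% of peaks shared a gap and the median TSS distance was 1249.5 bp. With 1000 bp, 14.1% lay on X, 32.8% shared a gap, the median distance was 3293 bp and 0% lay in a transposable element. With protein-coding genes only, 25.6% were intergenic, the GC difference was -3.96, 17.8% lay on X, 45% shared a gap and the median distance was 3137.5 bp. The stronger 50% of the thresholded set held 115 intergenic peaks, of which 100% had a candidate in both replicates, 12.2% lay on X, 28.7% shared a gap and 0% lay in a transposable element, with a GC difference of -4.97 and a median distance of 1873 bp. Matching within 100 or 500 bp gave 89.6% or 98.1% in both replicates, and the strongest candidates alone 52.3%. The GC difference was -5.38 within 50 bp of the summit, -2.07 against next-ranked candidates and -4.13 with 1 peak per 1 kb.

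Leaving out 1 replicate, the intergenic share was 19.28 to 20.81%, the GC difference -4.27 to -4.02, the X share 12.1 to 14.0%, the share in a shared gap 33.1 to 34.9%, the median distance 2052 to 2056 bp and the share in a transposable element 0.712 to 1.17%. The share of repeated sequence was 0% throughout. Of 160 recomputed ratios of the 16 short sequences, 26 fell on the other side of 1; for 5 sequences none did. The ratio ranged from 1.01 to 6.42 for the Zelda site, from 1.03 to 1.79 for the GATA factor site and from 1.03 to 1.46 for the TATA box core. It ranged from 0 to 0.589 for the E-box CACGTG and from 0.217 to 0.819 for the other E-box. The cause of these shifts was not tested. No paired analysis was possible because the series has 1 group. Read depth is unknown, so precision at single sites cannot be given.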
